A study of Mus musculus with 25 samples.

Results

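At baseline, lungs of mice without the prostaglandin F receptor differed from wild-type lungs in 2 of the genes tested. These were the receptor gene Ptgfr and its nearest tested neighbour on the chromosome, Ifi44l. Interferon-stimulated genes, which include Ifi44l, lay slightly higher together, but none of the others passed the test. The comparison uses 8 of the 25 arrays of the series: 4 FP-KO lungs of Day 0 and 4 WT lungs of Day 0, chosen by their titles. FP-KO mice lack FP, the receptor encoded by Ptgfr, and WT mice are their wild-type counterparts. All mice were female, and the tissue was whole lung. Per the labels, bleomycin, a drug that injures the lung, was instilled into the trachea at 1 mg/kg in 40 ul of saline on Day 0, and the Day 0 arrays are described as baseline. The sources used here do not give strain, age, the deleted exons or whether the Day 0 mice received an instillation. The other arrays are FP-KO (n = 4) and WT (n = 4) of Day 7 and FP-KO (n = 4) and WT (n = 5) of Day 14. They are used where a Day 0 difference is followed in other mice. They also enter the Day 0 test, since normalization, filter, probe set choice and the spread between mice were taken over all 25 arrays. By their titles, the arrays come from separate mice.

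Prostaglandin F2α is a lipid made from arachidonic acid by cyclooxygenases and prostaglandin F synthases, and FP is the G protein-coupled receptor through which it raises calcium in the cell. In the lung the pathway is known for its part in bleomycin-induced fibrosis. Interferon-stimulated genes are switched on when type I interferon binds its receptor on the cell surface. Most of their products act against viruses.

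Expression was measured on Affymetrix mouse arrays, where a set of short probes reports on a transcript by its brightness, here called its intensity. Values per mouse are deposited intensities, given for mice No. 1 to No. 4. Differences are FP-KO minus WT on the log2 scale after a floor of 24.3 and quantile normalization, and the value after ± is limma's standard error. Passing means a Benjamini-Hochberg adjusted p under 0.05 over the 12062 genes tested. Array medians ran from 120.2 to 151.5 on Day 0, and the number of arrays limits the precision. Lung markers were high in both genotypes: Sftpc, the surfactant protein C gene, read 33656.2 to 36632.1 in FP-KO lungs and 27987.3 to 36990.7 in WT lungs. Markers of cartilage (Acan, Col2a1) and thymus (Rag1, Ptcra) did not reach the level needed for testing. The first principal component of the 8 arrays held 28.1% of the variance and did not part the genotypes. FP-KO mouse No. 1, WT mouse No. 1 and WT mouse No. 2 lay at its low end. On the first component of all 25 arrays, FP-KO mouse No. 2 of Day 14 stood apart from its group, at -28.9 beside 1.44, -5.37 and -3.87, so Day 14 values that rest on it are also given without it. The 18S ribosomal control probe set was also uneven, at 6648.1, 484.9, 2140.2 and 308.9 in FP-KO lungs and 2869.8, 474.2, 284.9 and 209.3 in WT lungs.

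Of the 12062 genes, 2 passed on Day 0, 0.0166% of those tested: Ifi44l was higher in FP-KO lungs and Ptgfr was lower, each 0.00829% of the genes. At an unadjusted p under 0.05 there were 403 genes (3.34%), of which 176 were higher (1.46%) and 227 lower (1.88%). With only the Day 0 arrays in the fit, 2 genes passed and 501 had an unadjusted p under 0.05. After normalization the groups did not overlap for 255 genes (2.11%), with 116 higher (0.962%) and 139 lower (1.15%). A difference of at least 1 on the log2 scale was found for 22 genes (0.182%). The difference was above 0 for 47.9% of genes, and the median over all genes was -0.0058. None of the 2843 probe sets without a gene symbol passed in limma, and 89 of them had an unadjusted p under 0.05 (3.13%). The counts for named groups of genes below are set beside these values.

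The sequences just upstream of 3 genes are shown. Ifi44l and Ptgfr are the genes that passed, and Oas3 had the smallest p of the other genes on the interferon-stimulated list. Herc6, described below and not on that list, had a smaller p. Each is the RefSeq sequence of the 250 bases before the annotated start, in GRCm38.p6, 5′ to 3′ on the strand of the gene, which is the minus strand in each case. They lie at chr3:151762892-151763141 for Ifi44l, chr3:151837529-151837778 for Ptgfr and chr5:120777660-120777909 for Oas3. Capitals mark GAAA, then any 2 bases, then GAAA again, or on the other strand TTTC, any 2 bases and TTTC, the repeat found in interferon-stimulated response elements.
Ifi44l: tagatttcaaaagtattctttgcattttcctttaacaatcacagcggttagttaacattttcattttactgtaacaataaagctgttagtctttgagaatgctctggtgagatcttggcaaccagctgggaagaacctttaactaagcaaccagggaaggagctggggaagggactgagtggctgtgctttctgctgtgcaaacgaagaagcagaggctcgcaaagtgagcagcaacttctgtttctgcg
Ptgfr: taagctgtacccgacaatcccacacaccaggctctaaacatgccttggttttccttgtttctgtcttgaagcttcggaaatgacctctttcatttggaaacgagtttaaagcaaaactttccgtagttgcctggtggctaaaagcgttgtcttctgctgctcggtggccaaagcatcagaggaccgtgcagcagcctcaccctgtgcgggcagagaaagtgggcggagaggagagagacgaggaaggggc
Oas3: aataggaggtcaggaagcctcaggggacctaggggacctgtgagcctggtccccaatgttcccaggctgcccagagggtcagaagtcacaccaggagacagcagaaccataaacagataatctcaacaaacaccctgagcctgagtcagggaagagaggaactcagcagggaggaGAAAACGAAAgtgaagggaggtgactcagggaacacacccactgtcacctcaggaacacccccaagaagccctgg
The Oas3 window holds 1 match and the windows of Ifi44l and Ptgfr hold 0, which says only that these letters are not there. The windows of Herc6 and Oasl2, not shown, also hold 0. Both strands were searched. The motif was in 2.98% of all 32851 promoter windows, and 3.22% of the 9741 tested genes with an entry did. Among the interferon-stimulated genes with an entry it was found for 9 of 23, or 39.1%. A match is a description of the letters and not of binding.

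Ptgfr checks the labels. It read 56.9, 33.9, 57.6 and 34.4 in FP-KO lungs, against 258.6, 308.4, 383.7 and 265.4 in WT lungs. All 4 FP-KO lungs lay below all 4 WT lungs. The means were 45.7 ± 13.3 in FP-KO lungs and 304.0 ± 57.5 in WT lungs (SD, n = 4 each), and the difference was -2.86 ± 0.24 (limma adjusted p = 1.56e-07). The receptor gene has 5 probe sets, and the other 4 gave -3.29, -2.56, -2.07 and -0.89. Their position relative to the deletion is unknown here.

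The other prostanoid receptors are the binding proteins for prostaglandins D2, E2 and I2 and for thromboxane. Of the 7 receptor-list genes tested, 4 differences were above 0 and 3 below, with a median of 0.13, and Ptgfr was the only one that passed. Ptger3, a receptor for prostaglandin E2, read 124.8, 93.8, 165.7 and 188.9 in FP-KO lungs and 175.3, 175.2, 148.3 and 226.5 in WT lungs. Its groups overlapped, and the difference was -0.43 ± 0.22. Ptger4, another receptor for prostaglandin E2, differed by 0.24 ± 0.15, also with overlap. Ptgfrn, which encodes a membrane protein that binds to FP, read 5580.6, 5513.0, 4105.5 and 4235.6 in FP-KO lungs and 4875.2, 5253.8, 3072.2 and 4000.4 in WT lungs, a difference of 0.22 ± 0.14. The enzymes that make and break prostaglandins had 7 of 13 differences above 0, with a median of 0.00, and 0 passed. Ptges2, a prostaglandin E synthase, had the smallest p of them, with a difference of -0.36 ± 0.15 and overlapping groups. Prxl2b, which carries prostaglandin F synthase activity, differed by -0.17 ± 0.12.

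Ifi44l, an interferon-induced gene that also encodes a minor histocompatibility antigen of mice, was the gene with the largest difference. It read 193.0, 203.9, 211.8 and 253.6 in FP-KO lungs, against 2.3, 2.4, 12.6 and 28.8 in WT lungs. The groups were far apart, and 3 of the 4 WT values lay below the floor. The means were 215.6 ± 26.5 in FP-KO lungs and 11.5 ± 12.5 in WT lungs (SD, n = 4 each). The difference was 3.07 ± 0.11 (limma adjusted p = 6.16e-15), at least 8.38-fold higher in FP-KO lungs, with WT values taken at the floor where they were under it. The standard error and p therefore leave out the spread of WT values under the floor.

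A further probe set of Ifi44l read 209.2, 151.2, 272.8 and 248.0 in FP-KO lungs and 21.9, 16.2, 3.0 and 3.0 in WT lungs, a difference of 3.10. Another probe set was at or near the floor in both genotypes and differed by 0.03. The gene was also apart in the other mice of the series: it read 375.1 to 445.1 in FP-KO lungs of Day 7 and 1.6 to 33.9 in WT lungs of Day 7. On Day 14 it read 158.6 to 209.2 in FP-KO lungs and 1.5 to 17 in WT lungs. It was 1 of 2 genes that passed on Day 7 (0.0166%), with a difference of 3.96 (limma adjusted p = 2.17e-17), and the Day 14 difference was 2.91 (limma adjusted p = 6.06e-15). The other gene that passed on Day 7 was Ptgfr, with a difference of -1.95 (limma adjusted p = 0.000186), and on Day 14 its difference was -2.49 (limma adjusted p = 8.47e-07). The genotype difference of Day 7 minus that of Day 0 was 0.89 for Ifi44l (limma adjusted p = 0.111) and 0.91 for Ptgfr (limma adjusted p = 0.772), and neither passed. No gene passed for this quantity in limma (0%), and 765 genes had an unadjusted p under 0.05 (6.34%).

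**Figure D1:**
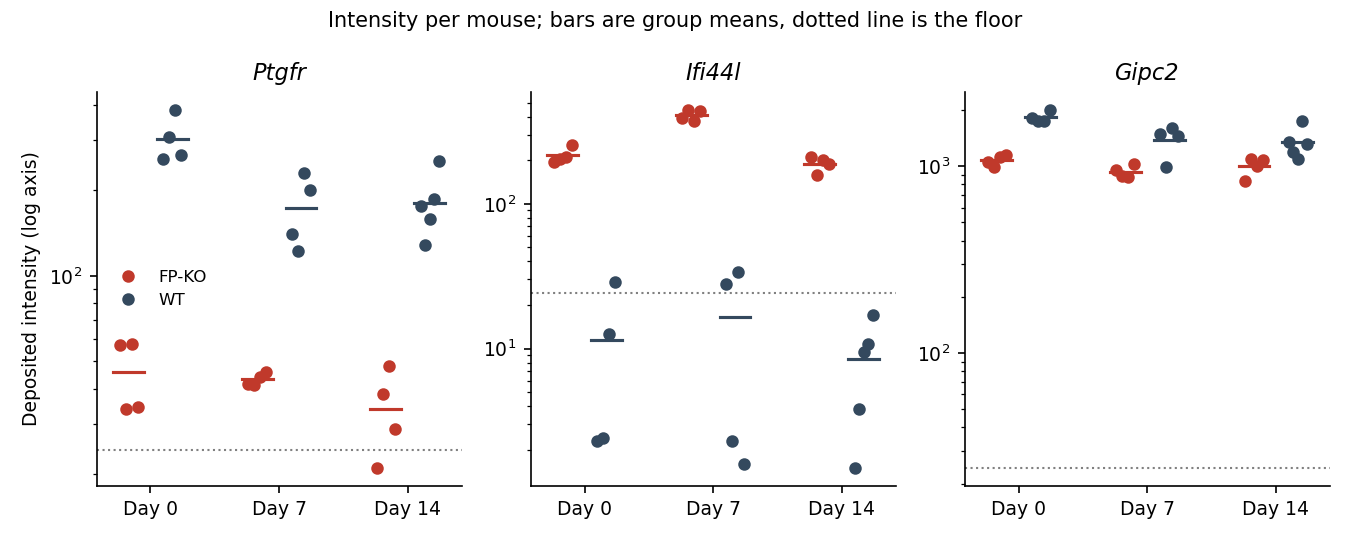
Deposited intensity of Ptgfr, Ifi44l and Gipc2 in every mouse (log axis), with FP-KO (red) left of WT (blue) on each of Day 0, Day 7 and Day 14; points are mice, bars are group means and the dotted line is the floor of 24.3. Ifi44l lies at 193.0 to 253.6 in FP-KO lungs of Day 0 and at 2.3 to 28.8 in WT lungs of Day 0.

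Ifi44l is the nearest tested neighbour of Ptgfr on chromosome 3. A targeted allele is carried with a stretch of chromosome beside it, and the sources used here do not say whether it differs in strain between these genotypes. The neighbourhood was therefore described gene by gene, in the gene order of GRCm38.p6, without Ptgfr itself. Within 5 Mb of Ptgfr the reference table lists 117 genes, of which 34 are on the array and 22 were tested. Of the 22, 11 were above 0 and 11 below, with a median of -0.013. An unadjusted p under 0.05 was found for 8 (3.34% of all genes), of which 4 were higher and 4 lower. Ifi44l was the 1 that passed. Without Ifi44l, 10 of 21 were above 0, with a median of -0.028. The mean log2 levels of these 21 per mouse did not overlap, at 9.52 to 9.63 in FP-KO lungs and 9.66 to 9.80 in WT lungs. Within 20 Mb, 87 genes were tested, with 42 above 0 and 45 below, a median of -0.011 and 15 with an unadjusted p under 0.05.

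Gipc2, the nearest tested gene on the other side of Ptgfr, encodes a PDZ-domain protein. It read 1052.7, 992.0, 1115.3 and 1155.9 in FP-KO lungs, against 1824.5, 1751.0, 1751.4 and 2004.0 in WT lungs. The groups did not overlap, and the spread within each was small beside the distance between them. The difference was -0.76 ± 0.14 and had the smallest p of all genes after Ifi44l and Ptgfr, but it did not pass (limma adjusted p = 0.062). Over the alternative settings its adjusted p ran from 0.00607 to 0.963, and it passed in 5 of 24. In the other mice Gipc2 differed by -0.54 on Day 7 (limma adjusted p = 0.332) and by -0.41 on Day 14 (limma adjusted p = 0.0494).

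St6galnac3, a sialyltransferase gene, read 259.7, 343.8, 223.7 and 204.2 in FP-KO lungs and 474.6, 240.5, 544.4 and 399.6 in WT lungs. The groups overlapped through WT mouse No. 2, and the difference was -0.71 ± 0.22, beside -0.75 on Day 7 and -0.76 on Day 14. Nexn, which encodes an actin-binding protein of muscle, read 484.5, 469.5, 455.8 and 587.6 in FP-KO lungs and 898.6, 480.2, 749.6 and 655.8 in WT lungs. Its groups overlapped too, with a difference of -0.46 ± 0.13, beside -0.58 on Day 7 and -0.36 on Day 14. Negr1, a cell adhesion gene named after its values were seen, had differences of -1.09 ± 0.34 on Day 0, -0.65 on Day 7 and -1.10 on Day 14. None of these 3 passed on Day 0. On Day 14, where 10.5% of all genes passed, St6galnac3 and Negr1 did (limma adjusted p = 0.0248 and 0.0322). Without FP-KO mouse No. 2 of Day 14, the Day 14 differences were -0.44 for Gipc2 (limma adjusted p = 0.0904) and -0.83 for St6galnac3 (limma adjusted p = 0.0514). Neither passed in that fit, and no value from it is given for Negr1. Negr1 read 49.9 in that mouse, beside 44.2, 121.8 and 57.8 in the other FP-KO mice of Day 14. The 3 days use different mice, so these values are repeats of the genotype comparison under other conditions. Other neighbours lay higher on Day 0: Rabggtb by 0.38 ± 0.15 and Adgrl2 by 0.20 ± 0.10, both without overlap. Pigk was higher by 0.21 ± 0.08, with overlap. None of them passed. St6galnac5 differed by 0.23 on Day 0, 1.25 on Day 7 and 1.14 on Day 14, where it passed (limma adjusted p = 0.0044). No value without FP-KO mouse No. 2 of Day 14 is given for St6galnac5. Of the 22 neighbours, 5 passed as higher on Day 14 and 3 as lower, against 4.89% and 5.64% of all genes.

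**Figure D2:**
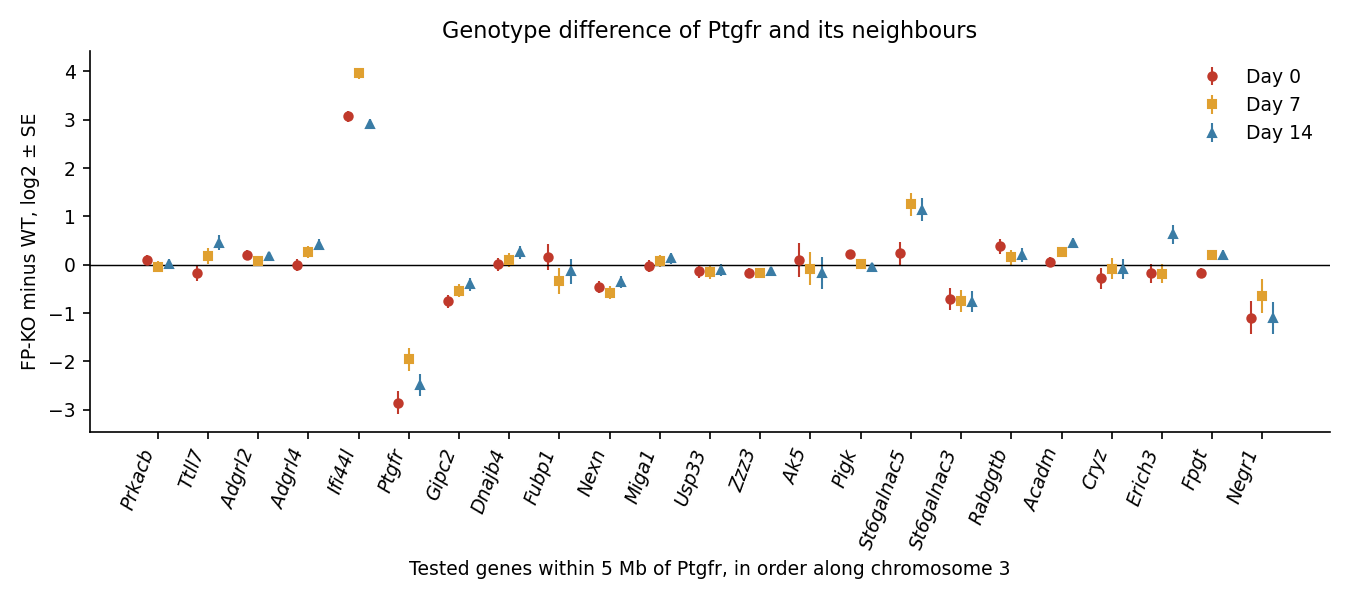
Difference FP-KO minus WT (log2, limma, bars are standard errors) for Ptgfr and its 22 tested neighbours within 5 Mb on chromosome 3, in their order along the chromosome, on Day 0, Day 7 and Day 14. Ifi44l (3.07 on Day 0) and Ptgfr (-2.86) stand side by side far from 0, and Gipc2 (-0.76) follows next to Ptgfr.

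The named genes after Ifi44l and Ptgfr are those of smallest p in each direction, 11 each way, and none of these 22 passed. Their adjusted p ran from 0.393 to 0.903 among the higher genes and from 0.062 to 1 among the lower ones. Ranked by p, they are the tail of 12062 comparisons, and their values are given as a description.

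Herc6, in mice the ligase that attaches Isg15 to proteins, read 340.0, 431.3, 431.2 and 426.5 in FP-KO lungs and 298.3, 246.3, 290.7 and 310.0 in WT lungs. Its groups did not overlap, with FP-KO mouse No. 1 nearest to WT, and the difference was 0.49 ± 0.11. The other 3 probe sets of Herc6 gave 0.33, 0.30 and 0.30. On Day 14 Herc6 passed in the other direction, at -0.36 (limma adjusted p = 0.0277). Without FP-KO mouse No. 2 of Day 14 it did not pass, at -0.26 (limma adjusted p = 0.158). The genes Slfn4 and Slfn2 are Schlafen family genes expressed in immune cells. Slfn4 read 698.1, 963.5, 420.6 and 493.7 in FP-KO lungs and 326.1, 167.8, 251.5 and 265.5 in WT lungs, a difference of 1.30 ± 0.33. Slfn2 read 1409.1, 1507.6, 1097.2 and 1396.0 in FP-KO lungs and 772.0, 1068.4, 900.1 and 1063.1 in WT lungs, a difference of 0.52 ± 0.14. All 4 FP-KO lungs were above all 4 WT lungs for both Schlafen genes.

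Igsf6, an immunoglobulin superfamily gene of myeloid cells, read 161.8, 205.7, 177.0 and 157.7 in FP-KO lungs and 94.7, 12.6, 111.9 and 115.9 in WT lungs. WT mouse No. 2 alone was far below the rest, and the difference was 1.23 ± 0.31. Icos, a costimulatory receptor of activated T cells, read 121.6, 205.4, 110.9 and 126.0 in FP-KO lungs and 85.0, 75.4, 79.2 and 86.4 in WT lungs. That probe set differed by 0.69 ± 0.15 without overlap, while 2 other probe sets of Icos gave 0.03 and 0.27, so the probe sets disagree.

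Whether the remaining higher genes share a role was not tested. H1f10, a linker histone gene, differed by 1.05 ± 0.26, and Plxna4, a semaphorin receptor gene, by 0.66 ± 0.17. Bcl9, which encodes a coactivator of beta-catenin, read 664.7, 494.4, 491.2 and 511.9 in FP-KO lungs and 279.5, 342.8, 404.9 and 329.7 in WT lungs, a difference of 0.66 ± 0.18. Mcoln2, which encodes a cation channel of endosomes, differed by 0.51 ± 0.14. Bcl9 and Mcoln2 lie on chromosome 3, as Ptgfr does, but neither is among its tested neighbours within 5 Mb. Oas3 and Oas2 complete the list and are described with the interferon-stimulated genes.

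Among the lower genes, C6, a component of the complement membrane attack complex, read 602.1, 645.7, 663.6 and 633.4 in FP-KO lungs and 811.2, 698.8, 973.6 and 896.3 in WT lungs. The 4 FP-KO values were close together and all below WT, with a difference of -0.41 ± 0.10. Bmyc, a Myc-related gene, read 392.1, 412.5, 396.6 and 434.4 in FP-KO lungs and 502.9, 468.3, 520.8 and 615.8 in WT lungs, without overlap and with a difference of -0.39 ± 0.09. Lrrc6, which encodes an assembly factor for the dynein arms of cilia, read 136.4, 129.8, 167.2 and 153.3 in FP-KO lungs and 196.7, 178.9, 187.0 and 191.8 in WT lungs. Its difference was -0.43 ± 0.12 without overlap on Day 0, and on Day 14 it passed in the other direction, at 0.54 (limma adjusted p = 0.0042).

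Lgals12, a galectin gene of fat cells, differed by -0.69 ± 0.19, and Myom2, a gene of the muscle M band, by -0.81 ± 0.23. Zfp703, a zinc finger gene, differed by -0.38 ± 0.11, Mtrr, which encodes methionine synthase reductase, by -0.52 ± 0.15, and Actl7b, an actin-related gene known from testis, by -0.97 ± 0.23. Mtus2, which encodes a microtubule-associated protein, differed by -0.48 ± 0.14. It differed by -0.45 on Day 14 and passed there (limma adjusted p = 0.03), but not without FP-KO mouse No. 2 of Day 14, where the difference was -0.43 (limma adjusted p = 0.104). Of the lower 11 and Ptgfr, 9 showed no overlap, and of the higher 11 and Ifi44l, 11 showed none. That is what ranking by p selects.

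The interferon-stimulated genes lay above 0 together. The list holds 37 genes, of which 32 are on the array and 31 were tested, and all 31 differences were above 0, against 47.9% of all genes. Their median was 0.28, against -0.0058 over all genes, and 11 had an unadjusted p under 0.05, all on the higher side, where 1.46% of all genes lay. Without WT mouse No. 1 that count was 7. After normalization the groups did not overlap for 6 members, all on the higher side, where 0.962% of all genes lay. Only Ifi44l passed. Without Ifi44l, all 30 were above 0 and the median was 0.27. The list was chosen with earlier results of these data known.

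The oligoadenylate synthetases, sensors of double-stranded RNA that activate RNase L, were the members with the smallest p after Ifi44l. Oas3 read 128.5, 121.3, 76.8 and 90.8 in FP-KO lungs and 68.4, 55.1, 15.5 and 20.5 in WT lungs. The deposited values did not overlap, although they did after normalization, and 2 WT values lay below the floor. The difference was 1.27 ± 0.32 (limma adjusted p = 0.706). Oas2 read 246.0, 348.6, 265.8 and 269.0 in FP-KO lungs and 188.8, 121.1, 202.9 and 179.0 in WT lungs, a difference of 0.70 ± 0.18. Oas1a read 739.0, 839.8, 714.3 and 698.6 in FP-KO lungs and 493.3, 582.8, 483.3 and 535.4 in WT lungs, a difference of 0.51 ± 0.16. Oasl2, a synthetase-like gene, read 1008.3, 1281.1, 1336.9 and 1388.2 in FP-KO lungs and 758.7, 880.6, 895.0 and 920.0 in WT lungs, a difference of 0.53 ± 0.17. In Oas2, Oas1a and Oasl2 every FP-KO lung was above every WT lung.

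Zbp1, a sensor of left-handed nucleic acid, read 249.6, 348.9, 237.4 and 268.8 in FP-KO lungs and 80.8, 172.5, 242.7 and 205.9 in WT lungs. The spread among WT lungs was wide, and the difference was 0.71 ± 0.26. The deposited values overlapped through WT mouse No. 3, although the normalized ones did not. Irf7, the transcription factor that amplifies type I interferon, read 511.6, 571.5, 416.6 and 546.6 in FP-KO lungs and 381.3, 361.5, 367.8 and 387.3 in WT lungs, a difference of 0.43 ± 0.20. Its groups did not overlap. At the other end, Ifit2, an RNA-binding antiviral gene, read 775.7, 821.3, 849.8 and 856.8 in FP-KO lungs and 865.3, 747.1, 827.0 and 816.3 in WT lungs, a difference of 0.02 ± 0.13. Ifi35 likewise differed by 0.02 ± 0.11, with groups that overlapped.

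As the mean log2 level of the 31 members in each mouse, the values were 9.40, 9.59, 9.42 and 9.50 in FP-KO lungs and 8.97, 9.18, 9.03 and 9.02 in WT lungs. The 4 FP-KO means were above the 4 WT means. Without Ifi44l they were 9.46, 9.66, 9.48 and 9.55 in FP-KO lungs and 9.12, 9.34, 9.17 and 9.16 in WT lungs, still without overlap. Of the 37 lists with a tested gene, the means failed to overlap for 2, this one and the prostanoid receptors, which include Ptgfr. The 21 neighbours of Ptgfr other than Ifi44l, not counted among these lists, also had means that did not overlap. Without the 3 arrays with an 18S reading above 2000, 31 of 31 members were above 0, with a median of 0.30. Without FP-KO mice No. 1 and No. 2, 29 of 31 were, with a median of 0.32.

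In the mice of Day 7 the median was nearer to 0, and in those of Day 14 most members lay below 0. On Day 7, 27 of 31 members were above 0, against 51.1% of all genes, with a median of 0.13. On Day 14, 2 of 31 were, against 49.5% of all genes, with a median of -0.24. On that day Ifi44l passed as higher, and 6 members passed as lower in FP-KO lungs, where 5.64% of all genes did. The genotype difference of Day 14 minus that of Day 0 passed as negative in 8 members, against 1.84% of all genes (3.12% in either direction). For Oas3 it was -1.94 (limma adjusted p = 0.025), for Cxcl10, a chemokine gene induced by interferon, -1.60 (limma adjusted p = 0.023), and for Oas1a -1.03 (limma adjusted p = 0.02). Without FP-KO mouse No. 2 of Day 14, 1 member passed as lower on Day 14 and 3 interactions passed as negative. In that fit the median of the list was -0.21 and the Oas3 interaction -1.99. Over all genes, 200 passed as lower on Day 14, against 680 with that mouse, and 72 interactions passed as negative, against 222. The interaction contains the Day 0 difference by which some of these genes were named.

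**Figure D3:**
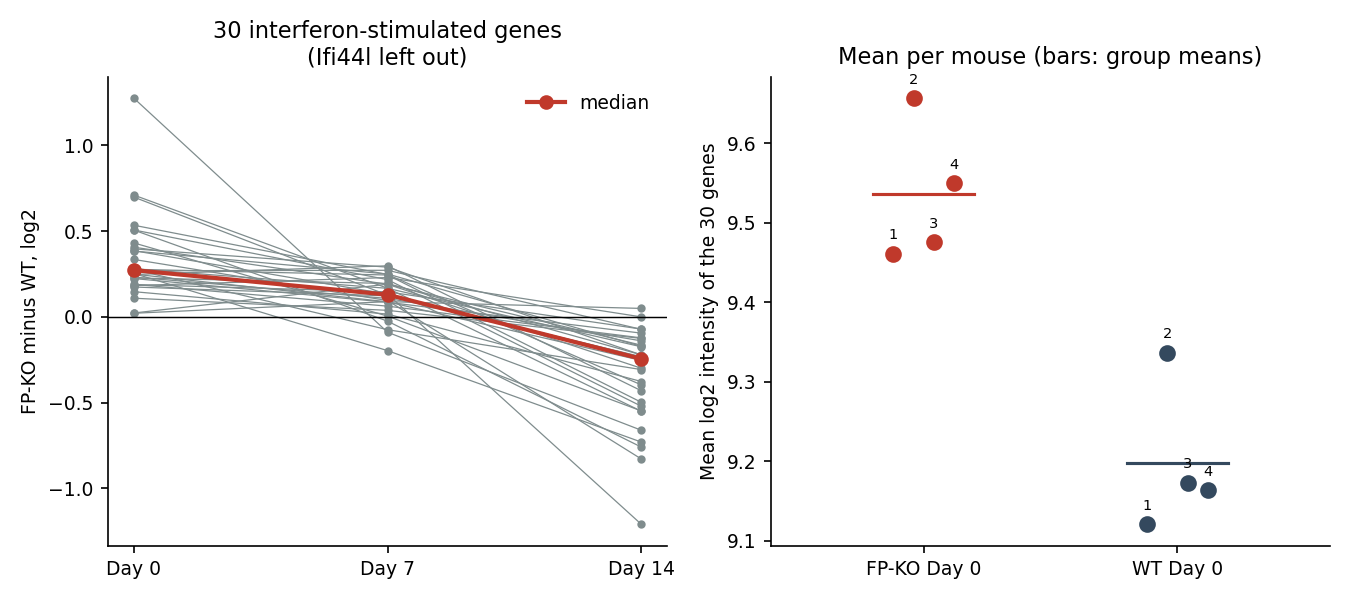
Left, difference FP-KO minus WT (log2) on Day 0, Day 7 and Day 14 for the 30 tested interferon-stimulated genes other than Ifi44l, 1 line per gene, with their median in red. Right, the mean log2 intensity of these 30 genes in each Day 0 mouse, numbered by mouse, FP-KO left of WT, with bars at the group means; the 4 FP-KO means (9.46 to 9.66) lie above the 4 WT means (9.12 to 9.34), and the median difference passes below 0 by Day 14 (-0.24).

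Genes induced by interferon gamma, which include the guanylate-binding and immunity-related GTPases and the antigen presentation genes, were above 0 in 20 of 21 cases, with a median of 0.24. Of these, 10 had an unadjusted p under 0.05, against 1.46% of all genes as higher, and 0 passed. That count was 2 without FP-KO mouse No. 2, 3 without WT mouse No. 1, 4 without WT mouse No. 2, 6 without FP-KO mouse No. 4 or WT mouse No. 3, and 2 under a common median. Iigp1, an immunity-related GTPase gene, read 2060.2, 2723.5, 2536.3 and 2271.1 in FP-KO lungs and 1319.1, 1570.9, 2298.6 and 2032.3 in WT lungs. The groups overlapped, and the difference was 0.45 ± 0.16. Igtp, of the same family, read 1569.7, 1904.3, 1359.0 and 1321.5 in FP-KO lungs and 1157.3, 1233.7, 1104.9 and 1249.7 in WT lungs, without overlap and with a difference of 0.37 ± 0.16. The mean of this list per mouse was 10.88, 11.19, 10.95 and 10.98 in FP-KO lungs and 10.61, 10.76, 10.85 and 10.90 in WT lungs. FP-KO mouse No. 1 lay below WT mouse No. 4, so these means overlapped. On Day 7 the median was 0.01 and on Day 14 it was -0.08.

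Markers of immune cells were mostly above 0 but depended on individual mice. In whole lung, fewer cells of a type and less RNA per cell cannot be told apart. Neutrophil genes had a median of 0.52, with 8 of 10 above 0, against 47.9% of all genes, and 0 passed. An unadjusted p under 0.05 was found for 4, all higher, against 1.46% of all genes. The 4 became 1 without FP-KO mouse No. 2, 6 without FP-KO mouse No. 3 and 2 with only the Day 0 arrays in the fit. S100a9, a calcium-binding protein gene abundant in neutrophils, read 5671.0, 10602.6, 2931.3 and 3465.9 in FP-KO lungs and 2097.4, 1636.1, 2277.6 and 2546.5 in WT lungs. FP-KO mice No. 1 and No. 2 were highest, and the groups did not overlap, with a difference of 1.25 ± 0.38. S100a8, its partner, read 9995.9, 13353.0, 3935.4 and 4463.3 in FP-KO lungs and 4476.1, 2596.4, 3199.3 and 4731.4 in WT lungs. For S100a8 only FP-KO mice No. 1 and No. 2 lay above the WT range, with a difference of 0.94 ± 0.35. Mmp8, the neutrophil collagenase gene, differed by 0.82 ± 0.29.

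The neutrophil means per mouse were 9.99, 10.26, 8.996 and 9.28 in FP-KO lungs and 9.24, 8.90, 9.10 and 9.33 in WT lungs. Without FP-KO mouse No. 2 the median of the list was 0.32. Without FP-KO mice No. 1 and No. 2 it was 0.06, with 5 of 10 above 0. These 2 mice were also the highest in the cell cycle list, at 8.42 and 8.22, beside 7.61 and 7.82 in the other FP-KO mice and 7.70, 7.86, 7.84 and 7.82 in WT mice. That list had 19 of 22 genes above 0, with a median of 0.21, and 11 of 22 with a median of 0.0038 without them. Leaving out FP-KO mouse No. 1 alone gave a median of 0.04. Mki67, a gene of dividing cells, read 539.8, 450.3, 193.1 and 348.2 in FP-KO lungs and 243.0, 172.9, 276.0 and 275.5 in WT lungs. Its difference was 0.56 ± 0.24, with groups that overlapped.

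The dendritic cell and MHC class II genes were above 0 in 14 of 15 cases, with a median of 0.25, and in 10 of 15 with a median of 0.13 without FP-KO mice No. 1 and No. 2. The median was 0.16 without WT mouse No. 1. H2-Ab1, a class II chain gene, read 5903.5, 6817.8, 5445.2 and 6484.5 in FP-KO lungs and 3644.9, 5372.1, 5291.2 and 5092.3 in WT lungs. The deposited values did not overlap, although the normalized ones did, and the difference was 0.37 ± 0.14. Genes of NK and cytotoxic cells were above 0 in 13 of 14 cases, with a median of 0.25, and in 7 of 14 with a median of 0.0081 without those 2 mice. The NK median was 0.12 without FP-KO mouse No. 1 alone and 0.16 without WT mouse No. 2. Gzmb, a granzyme gene, differed by 0.49 ± 0.20, with FP-KO mouse No. 2 highest at 917.9. The T cell list had 10 of 15 above 0 and a median of 0.08, and the B cell list had 6 of 15 above 0 and a median of -0.01. Macrophage genes were above 0 in 16 of 19 cases with a median of 0.08, and 0 had an unadjusted p under 0.05.

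C1qb, a complement gene of macrophages, read 1180.1, 1255.1, 1186.6 and 1201.0 in FP-KO lungs and 740.4, 1179.3, 998.0 and 915.2 in WT lungs. The groups did not overlap, though by a margin of less than 1 unit, and the difference was 0.36 ± 0.27. Igha, the immunoglobulin A heavy chain gene of plasma cells, read 6093.9, 3506.0, 3826.6 and 4662.7 in FP-KO lungs and 2310.4, 3967.4, 1610.1 and 1260.6 in WT lungs. Its difference was 1.13 ± 0.47 with overlap through WT mouse No. 2. The plasma cell list had 6 of 8 above 0, with a median of 0.23, and of 0.07 without FP-KO mouse No. 4. Chemokine and cytokine genes had 14 of 19 above 0 and a median of 0.12, and Ccl11, the eosinophil chemokine gene, lay on the other side at -0.78 ± 0.34. The part of these cell markers in the interferon-stimulated shift was not tested.

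Heart muscle, skeletal muscle and fat genes lay below 0. Whole lung carries heart-like muscle around the pulmonary veins, and fat and skeletal muscle can come with the tissue. Cardiac muscle genes were below 0 in all 21 cases, with a median of -0.43, 9 with an unadjusted p under 0.05 against 1.88% of all genes, and 0 that passed. Tnnt2, cardiac troponin T, read 2166.5, 2034.5, 1717.3 and 2211.4 in FP-KO lungs and 2828.3, 2457.5, 3063.5 and 2705.9 in WT lungs. All 4 FP-KO lungs were lower, with a difference of -0.43 ± 0.16. Myh6, the atrial myosin heavy chain gene, read 4420.3, 3241.0, 2289.8 and 3124.1 in FP-KO lungs and 5830.8, 4635.7, 4263.0 and 4825.6 in WT lungs. FP-KO mouse No. 1 lay inside the WT range of deposited values, and the difference was -0.61 ± 0.22.

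The cardiac muscle means per mouse were 10.03, 9.79, 9.36 and 9.78 in FP-KO lungs and 10.39, 10.03, 10.21 and 10.05 in WT lungs, meeting at FP-KO mouse No. 1 and WT mouse No. 2. Leaving out each mouse in turn kept the median between -0.54 and -0.31. The 9 genes with an unadjusted p under 0.05 became 1 without FP-KO mouse No. 3, 3 without WT mouse No. 1, 5 without WT mouse No. 3 and 0 without the 3 arrays of high 18S. On Day 7, 13 of 21 genes were above 0, with a median of 0.10, and on Day 14, 19 of 21 were, with a median of 0.69 and 13 that passed as higher, against 4.89% of all genes. Without FP-KO mouse No. 2 of Day 14, 5 passed as higher there and the median was 0.46, while over all genes 192 passed as higher, against 590 with that mouse. The difference of Day 14 minus that of Day 0 passed as positive in 13 of 21, against 1.28% of all genes, and in 6 of 21 without FP-KO mouse No. 2 of Day 14.

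Skeletal muscle genes were below 0 in all 8 cases, with a median of -0.60, but single mice set that value. Myh1, a fast myosin gene, read 364.8, 20.4, 11 and 55.0 in FP-KO lungs and 1668.8, 29.5, 364.1 and 15.8 in WT lungs, and its difference was -1.34 ± 0.97. High readings came from mouse No. 1 of both genotypes and from WT mouse No. 3. Leaving out each mouse in turn moved the median between -1.08 and -0.05.

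Fat cell genes were below 0 in 16 of 19 cases, with a median of -0.23, and brown fat genes in 6 of 7, with a median of -0.40, and 0 passed in either list. The adipocyte median was -0.15 without FP-KO mouse No. 3. Adipoq, the adiponectin gene, read 1469.8, 1418.4, 1044.9 and 1148.8 in FP-KO lungs and 3522.5, 3788.9, 1236.0 and 1972.2 in WT lungs. WT mice No. 1 and No. 2 were far above the rest, and the difference was -0.90 ± 0.36. Fabp4, a fatty acid-binding protein gene, read 3739.8, 4440.0, 2812.5 and 3268.3 in FP-KO lungs and 7913.8, 6169.6, 3394.1 and 5242.7 in WT lungs, a difference of -0.61 ± 0.28. Cox8b, a respiratory chain gene of brown fat and heart, read 659.5, 825.3, 453.7 and 480.4 in FP-KO lungs and 1954.5, 808.5, 740.9 and 919.0 in WT lungs, a difference of -0.79 ± 0.32. The groups overlapped in all 3. The defining brown fat gene Ucp1 did not reach the level for testing, at 11.3 to 562.2 in FP-KO lungs and 9.7 to 473.6 in WT lungs.

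The fat cell means per mouse were 10.07, 10.19, 9.83 and 9.82 in FP-KO lungs and 10.47, 10.47, 9.90 and 10.24 in WT lungs. The adipocyte median was 0.14 on Day 7 and 0.34 on Day 14, and the brown fat median was 0.27 and 0.60, so the direction of Day 0 was not seen in the mice of the other days. Without the 3 arrays of high 18S the Day 0 medians were -0.12 for adipocyte genes, -0.24 for brown fat, -0.34 for cardiac muscle and -0.26 for skeletal muscle. The 4 lists share no gene, although Cox8b of the brown fat list is also a gene of heart. The sources used here do not give how much muscle or fat was taken with each lung, and its part in these differences was not tested.

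**Figure D4:**
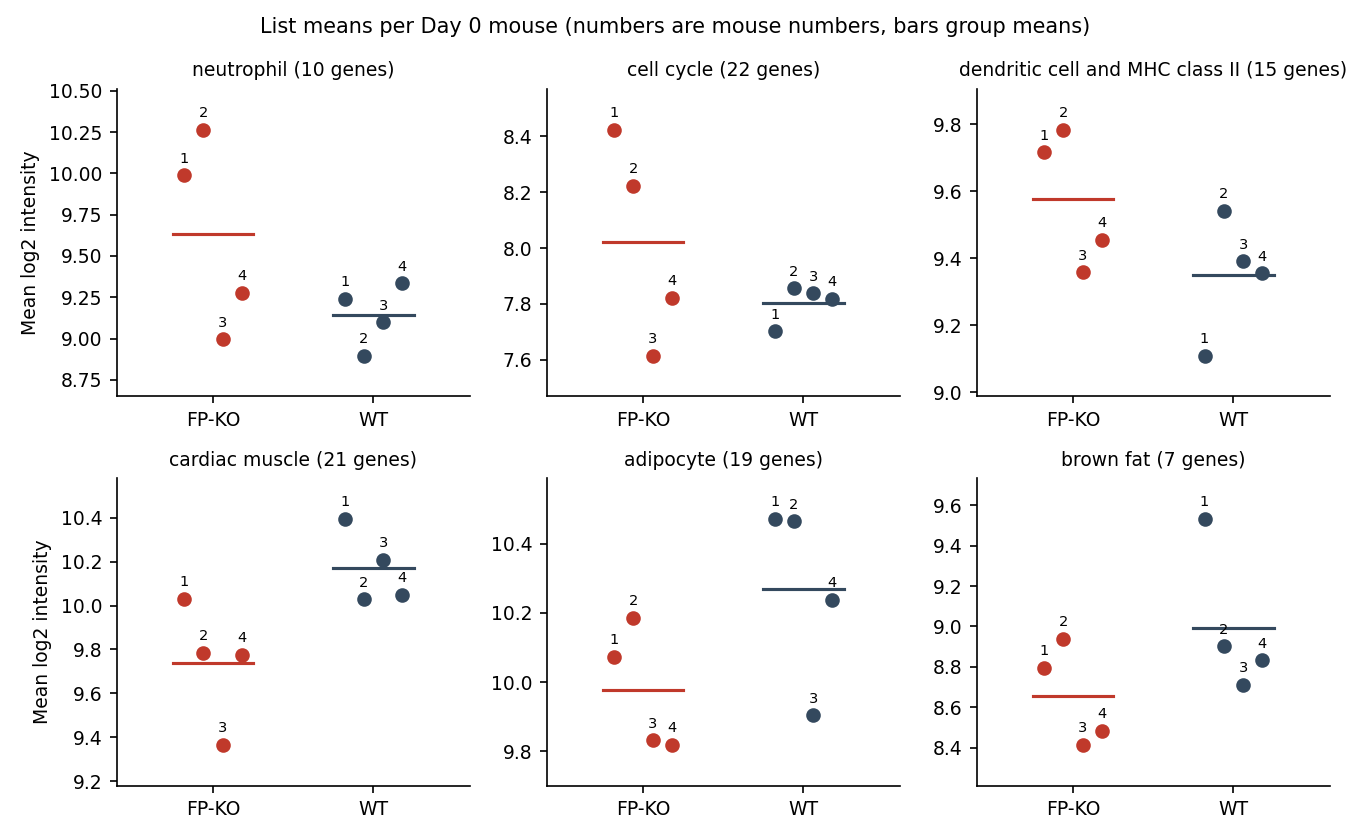
Mean log2 intensity per mouse on Day 0 of the neutrophil, cell cycle, dendritic cell and MHC class II, cardiac muscle, adipocyte and brown fat lists, FP-KO left of WT; points are numbered by mouse and bars are group means. FP-KO mice No. 1 and No. 2 lie at the top of the neutrophil panel (9.99 and 10.26), and FP-KO and WT means overlap in each panel.

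The structural cells of the lung showed small differences. Alveolar type 1 and type 2 genes, which mark the gas-exchange epithelium and the surfactant-making cells, had medians of -0.01 over 12 genes and 0.03 over 12 genes, with 0 at an unadjusted p under 0.05. Endothelial genes had a median of 0.03 over 22, resident fibroblast genes of -0.01 over 14, and smooth muscle genes of -0.04 over 12. Bpifa1, an airway secretory gene, read 14663.7, 13485.5, 11225.2 and 9923.9 in FP-KO lungs and 18385.3, 17019.5, 15929.2 and 15361.5 in WT lungs. All FP-KO lungs were lower, and the difference was -0.46 ± 0.22. Dcn, the decorin gene of fibroblasts, read 4036.2, 3921.3, 4455.9 and 4365.1 in FP-KO lungs and 5104.5, 5490.2, 5379.9 and 5121.2 in WT lungs, also without overlap, and the difference was -0.32 ± 0.15.

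Ciliated cell genes were below 0 in 10 of 13 cases, with a median of -0.09. Dnah5, a dynein gene of motile cilia, read 145.3, 159.8, 135.2 and 116.7 in FP-KO lungs and 183.7, 174.8, 195.8 and 216.2 in WT lungs, a difference of -0.53 ± 0.19. Its groups did not overlap. All 7 tested mesothelial genes were below 0, with a median of -0.17, and club and goblet genes had 12 of 15 below 0, with a median of -0.05. None of these structural list genes passed.

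Collagen genes, the readout of fibrosis, had 19 of 25 above 0 at baseline, with a median of 0.12, and 0 passed. The median was 0.06 without FP-KO mouse No. 1, and 0.023 with 14 of 25 above 0 without FP-KO mice No. 1 and No. 2. Col1a1, the main fibrillar collagen gene, read 1555.9, 1594.0, 1247.9 and 1564.4 in FP-KO lungs and 1008.0, 1044.2, 1252.8 and 1006.6 in WT lungs. FP-KO mouse No. 3 lay below WT mouse No. 3, and the difference was 0.47 ± 0.25. Col3a1 read 16872.5, 11522.9, 9123.8 and 11972.5 in FP-KO lungs and 9514.9, 11358.6, 9288.2 and 7123.1 in WT lungs, with overlap and a difference of 0.37 ± 0.15. Ccn2, a matrix-associated growth factor gene, differed by 0.35 ± 0.14. On Day 14 the collagen median was -0.50, with 15 of 25 passing as lower in FP-KO lungs, against 5.64% of all genes. Without FP-KO mouse No. 2 of Day 14, 4 of 25 passed and the median was -0.38.

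Other lists lay near all genes. Clock genes had a median of 0.0047 over 15, TGF-beta genes of 0.02 over 15, and sterol and fatty acid synthesis genes of 0.02 over 15. Immediate-early and heat-shock genes had a median of -0.05 over 21, while their means per mouse differed within genotypes more than between them. Egr1, an early response transcription factor gene, read 1582.8, 1718.6, 3238.4 and 2493.4 in FP-KO lungs and 1756.2, 1582.1, 6022.5 and 5737.6 in WT lungs, with mice No. 3 and No. 4 highest in both genotypes.

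The NRF2 and drug metabolism list had 12 of 17 below 0, with a median of -0.08. Cyp2e1, a cytochrome P450 gene also expressed in fat, read 1565.9, 1690.4, 1375.9 and 976.8 in FP-KO lungs and 3163.1, 3123.2, 1753.8 and 2050.8 in WT lungs. The groups did not overlap, and the difference was -0.81 ± 0.30. On Day 14 its difference was 1.32 (limma adjusted p = 0.0055), and the difference of Day 14 minus that of Day 0 was 2.14 (limma adjusted p = 0.015), which also passed without FP-KO mouse No. 2 of Day 14 (limma adjusted p = 0.0342).

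**Figure D5:**
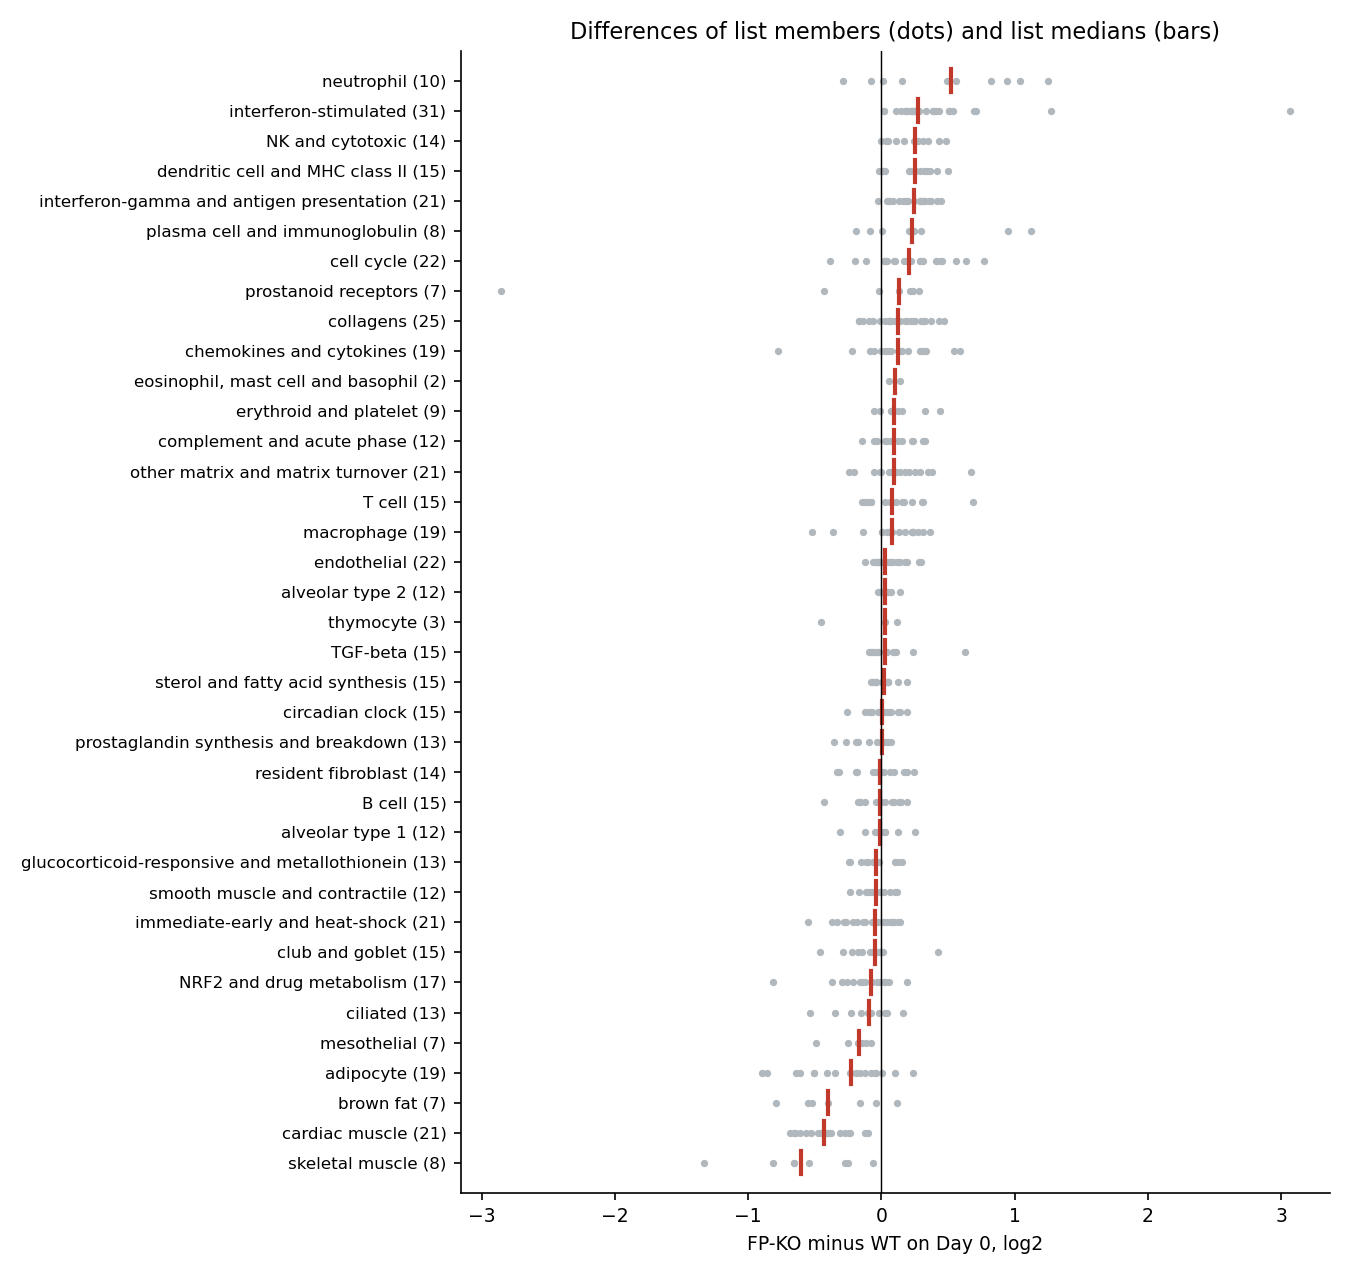
Difference FP-KO minus WT (log2) on Day 0 of the tested members of each gene list (grey dots) with the list's median (red bar), ordered by median, and the number of tested genes after each name; the vertical line is at 0. The neutrophil median (0.52) is at the top and the skeletal muscle median (-0.60) at the bottom, and the dots far from the rest are Ifi44l (3.07) and Ptgfr (-2.86).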

How the data were processed

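Lung RNA of 25 mice was measured on Affymetrix mouse arrays, and groups were taken from the sample titles. The deposited table gives linear intensities per probe set, which the authors had scaled to an equal level per array (every mean is 500 once the outer 2% at either end is trimmed), as tested on the values. Software and strand or exon positions of probes are not given in the sources used here. Of 45101 probe sets, 64 controls, 932 with several symbols and 9160 without one were left out of gene tests. The deposited intensities were floored at 24.3 (20th percentile), taken to log2 and quantile-normalized, since array medians spanned 0.432 on the log2 scale. The probe set of highest mean stood for a gene, and 12062 of 18193 genes exceeded the array median in 4 or more arrays.

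Tests used R 4.3.3 and limma 3.58.1 (lmFit on 6 group means over all 25 arrays, contrasts, eBayes), and tables and figures used pandas 2.3.3 and matplotlib 3.10.9. Scripts were tested on simulated data. Named genes were Ptgfr, genes that passed, those of smallest p up to 12 in each direction, up to 4 of smallest p per list and 4 neighbours of Ptgfr, and Negr1, Ifit2, Ifi35 and the further interferon members were added after their values were seen. The comparison, members and lists were chosen with earlier results of these data known. Of 38 lists, cartilage had 0 tested genes. Equal-numbered FP-KO and WT mice deviated together from their group means (r = 0.345, 0.147, 0.119 and 0.207), so the numbers were treated as pairs in an alternative fit. Of unequal numbers, FP-KO No. 4 with WT No. 3 (r = 0.190), No. 1 with No. 2 (0.132) and No. 3 with No. 4 (0.127) did so too. The remaining unequal numbers had r below 0. Nothing in the labels states separate litters or batches. Alternatives were other scalings, floors, filters, probe set rules, eBayes settings, array weights, the replicate block, each mouse left out, and sets of doubted arrays left out.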

Additional observations from a re-analysis of the deposited data

Results flagged for a closer look

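Among 210 groups of 4 mice on Day 0, 10 held a mouse far from the other 3, where chance alone gives about 1 in 20. WT mouse No. 4 was the highest of its group for Ifi44l at 28.8, still under every FP-KO value. FP-KO mouse No. 1 was the lowest for Herc6 at 340.0 and the highest for Bcl9 at 664.7 and Loxl1, a collagen crosslinking gene, at 2960.1. FP-KO mouse No. 2 was the highest for Oas2 at 348.6, and FP-KO mouse No. 4 for Mtus2 at 166.2. WT mouse No. 2 was the lowest for Igsf6 at 12.6 and for Mki67 at 172.9, and the highest in the mean of the chemokine and cytokine list at 8.20. WT mouse No. 1 was the highest in the mean of the neighbours of Ptgfr within 5 Mb at 9.56.

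The genotype difference of Day 14 minus that of Day 0 passed for 28 of 66 named genes (limma adjusted p under 0.05), against 3.12% of all genes. The genes were named by their Day 0 difference, which enters this quantity, so the count is a description. Negative values were found for Herc6 at -0.85, Icos at -0.84, Igsf6 at -1.70, Oas3 at -1.94, Oas2 at -0.93, Oasl2 at -0.93, Slfn2 at -0.93, Iigp1 at -1.14 and Mmp8 at -1.50. Also negative were the cell cycle genes Aurkb at -2.01, Plk1 at -1.88 and Mki67 at -1.62. The matrix genes Loxl1 at -0.74 and Col3a1 at -0.87 and the linker histone gene H1f10 at -1.35 were negative too. Muscle genes were positive: Myom2 at 1.27, Myh6 at 1.31, Tnnt2 at 0.90, Tnni3 at 1.26, Smpx at 1.89 and Ckmt2 at 1.65. So were Adipoq of the adipocyte list at 1.97, and Cox8b at 2.20 and Cox7a1 at 1.18 of the brown fat list. The cilia genes Dnah5 at 1.05 and Lrrc6 at 0.97, Bmyc at 0.46 and Cyp2e1 at 2.14 were positive as well. Without FP-KO mouse No. 2 of Day 14, 14 of the 28 passed. In that fit 52 positive and 72 negative interactions passed over all genes, against 154 and 222 with that mouse. Those of the 28 that did not pass had values of -0.84 for Icos, -1.54 for Igsf6, -1.39 for H1f10, -0.79 for Oas2, 0.41 for Bmyc, 1.09 for Myom2 and -0.84 for Oasl2. The others were 1.75 for Adipoq, 1.11 for Cox7a1, 1.07 for Myh6, 0.71 for Tnnt2, -1.37 for Mmp8, 0.84 for Dnah5 and -0.70 for Col3a1. With the set of 5 Day 14 arrays that stands apart on the second principal component as a term, all 28 passed. Both settings were chosen after seeing the data.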

How the results depend on the processing

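Of 24 alternatives, 22 gave 2 or 3 genes passing on Day 0, and each of the 8 fits that left out 1 mouse gave 2. A filter on the mean level gave 0 genes in limma, because it left both Ifi44l and Ptgfr out of testing, with 366 genes at an unadjusted p under 0.05. The same filter gave 0 for the 2 genes on Day 7 and Day 14, 0 for the members of gene lists and 0 for the neighbours of Ptgfr. The mean of all probe sets gave 4 genes, adding Gipc2 and Csf2ra, a cytokine receptor gene. Passing neighbours of Ptgfr numbered 2, with Gipc2 added, under values as deposited (adjusted p = 0.0416), a common median (0.014), the mean of all probe sets (0.0379), eBayes with trend (0.0309) and array weights (0.00607). A common median moved the median of all genes to -0.058, and there 29 of 31 interferon-stimulated genes were above 0. Over all alternatives the interferon-stimulated median ran from 0.23 to 0.35. The replicate block, as pairs of equal mouse number, gave 2 genes with Day 0 arrays and with all arrays and changed no call, with 755 and 634 genes at an unadjusted p under 0.05. The 66 named genes with an unadjusted p under 0.05 kept their sign under all alternatives in which they were tested. Leaving out 3 arrays of high 18S, FP-KO mice No. 1 and No. 2 or the Day 14 arrays was chosen after seeing the data. Signal near the floor limits Ifi44l in WT lungs and several Ptgfr probe sets in FP-KO lungs, so their fold changes are bounds or depend on the floor.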

Other observations

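Lists of few measurable genes are given here as values. Thymocyte genes numbered 3 tested of 9, with a median of 0.03, and eosinophil, mast cell and basophil genes 2 tested of 13. Cma1, a mast cell chymase gene, read 244.0, 166.1, 127.3 and 242.8 in FP-KO lungs and 150.9, 161.4, 172.3 and 175.9 in WT lungs, with overlap and a difference of 0.14 ± 0.23. Genes of red cells and platelets had 7 of 9 above 0 and a median of 0.10. Itga2b, the platelet integrin gene, read 441.3, 556.9, 380.4 and 533.3 in FP-KO lungs and 332.2, 385.8, 377.8 and 397.7 in WT lungs, with overlap and a difference of 0.33 ± 0.13.

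Glucocorticoid-responsive and metallothionein genes had 10 of 13 below 0 and a median of -0.04. Their means per mouse were 11.30, 11.32, 10.95 and 10.37 in FP-KO lungs and 11.44, 11.54, 10.53 and 10.63 in WT lungs, so that mice No. 1 and No. 2 were above mice No. 3 and No. 4 in both genotypes. The immediate-early and heat-shock means ran the other way, at 10.70, 10.80, 11.15 and 11.23 in FP-KO lungs and 10.70, 10.92, 11.25 and 11.39 in WT lungs. Complement and acute-phase genes had 9 of 12 above 0 and a median of 0.09, and other matrix genes 16 of 21 and a median of 0.09.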
